A study of Mus musculus with 8 samples.

Results

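The genes described here are 10 members of transforming growth factor beta (TGF-beta), activin and bone morphogenetic protein (BMP) signaling, read in 2 pancreatic tumors of KPC mice by single-cell RNA sequencing. They are the ligand genes Tgfb1, Tgfb2, Tgfb3, Inhba, Bmp2 and Bmp4, the receptor genes Tgfbr1 and Tgfbr2, the intracellular inhibitor gene Smad7 and the secreted antagonist gene Fst. They were taken by symbol, and each of the 10 names exactly 1 of the 27775 gene rows in each table. KPC mice carry, among their alleles, LSL-Trp53R172H/+ together with Pdx-1-Cre, a Cre recombinase that the Pdx-1 promoter drives in the pancreatic epithelial lineage and that switches the mutant allele on. The animals were untreated, and all cells of both tumors come from this genotype. The tumors, pancreatic ductal adenocarcinomas, were dissociated and run on the droplet platform of 10x Genomics, with 1 tumor called medium size and 1 called large size. Each tumor has 4 technical replicates that are pooled in 1 table, so there is no replicate error between tumors, no test was made and no p-value is given.

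TGF-beta ligands are secreted in a latent form, bound to latency and matrix proteins, and signal once released through a complex of the receptors TGFBR2 and TGFBR1, which phosphorylates SMAD2 and SMAD3. Activin A, a dimer of the protein encoded by Inhba, acts on the same SMADs through activin receptors, and follistatin, the product of Fst, binds activin and blocks it. BMP2 and BMP4 act through other receptors on SMAD1 and SMAD5 and induce the Id genes. Smad7 is itself a target of these pathways and feeds back on the receptors. In pancreatic cancer the pathway is known both as a brake on epithelial growth and as a driver of mesenchymal change and of the fibrous stroma.

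The medium-size tumor gave 2812 cells and 20301669 UMIs (unique molecular identifiers, 1 for each captured RNA molecule), or 5456.5 in the median cell. The large-size tumor gave 1533 cells and 2239012 UMIs, or 1037 in the median cell, so that low genes there are counted in few molecules. Levels are given as CPM, the UMIs of a gene out of 1000000 UMIs of the same cells, with exact 95% Poisson intervals. Since 1 UMI marks 1 molecule at its 3′ end, these values are per molecule and need no division by gene length. Shares of cells carry exact 95% binomial intervals, and all intervals cover counting error only. A sum of 0 allows up to 3 counts, or 0.148 CPM when all medium-size cells are summed and 1.34 CPM when all large-size cells are. Scrublet called 0 and 9 cells as doublets (0.587% in the large-size tumor) and none was removed, so doublets may remain in both. The tables share 5 cell barcodes.

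Clusters were computed in each tumor without the 10 genes and without a list of 75 pathway genes that holds them, so that their levels did not shape the clusters directly. A cluster took a class name from lists of marker genes. Of the 14 clusters of the medium-size tumor, 7 were epithelial-like and held 2102 cells. The monocyte/macrophage-like class held 238 cells, the mesothelial-like 74, the stromal-like (fibroblast) 67 and the endothelial-like 38. Cluster 12, of 65 cells, was left without a name because it carried both epithelial markers (10 of 11) and monocyte/macrophage markers (9 of 11).

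Cluster 8, of 228 cells, is where most of what follows turns, and it also stayed unnamed, because only 2 of 11 epithelial markers reached the level the rule asks for. All 11 were detected there. Their summed level was 6004 CPM (5894 to 6115), against 12183 CPM in the epithelial-like cells. The epithelial markers were uneven in it. Krt8 was at 1664 CPM against 3304 CPM in the epithelial-like cells and was seen in 96.5% of its cells, and Krt18, seen in 100%, was at 3017 CPM against 4397 CPM. Others were far lower, with Krt19 at 244 CPM against 1894 CPM, Krt7 at 333 CPM against 1544 CPM and Epcam at 189 CPM against 1197 CPM. Cluster 8 was also high in Vim (vimentin), at 1610 CPM against 726 CPM in the epithelial-like cells, and in Cdh2 (N-cadherin), at 123 CPM against 25.7 CPM. Fibroblast markers were near absent, with a summed 34.5 CPM in cluster 8, 32.6 CPM in the epithelial-like cells and 14697 CPM in the stromal-like cells, and Pdgfra was at 0. When each cell was classed from its own markers, 217 of the 228 cells (95.2%, 91.5 to 97.6) came out as epithelial. The epithelial-like cells, cluster 8 and the remaining classes are therefore kept apart below, and the main counts are also given with cluster 8 placed otherwise.

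Most of the 10 genes had a higher level in the other cells of the medium-size tumor than in the epithelial-like ones, Bmp4 being the exception. Of the 10 genes, 6 were at least 2-fold higher in the 710 other cells than in the epithelial-like cells, namely Inhba, Bmp2, Tgfb2, Tgfb1, Tgfb3 and Tgfbr2. None of the 10 was at least 2-fold higher in the epithelial-like cells. Over the 11205 genes with at least 50 UMIs, 11.5% were at least 2-fold higher in the other cells and 8.24% in the epithelial-like cells. The median log2 ratio of the 10 genes was 1.2, and that of all genes tested was -0.01. Where cluster 8 is placed decides which genes these are. With it counted as epithelial the count was 5, made of Tgfb2, Tgfb3, Tgfbr1, Tgfbr2 and Fst, while the log2 ratio of Inhba went from 4.86 to 0.81, that of Tgfb1 from 2.10 to 0.85 and that of Bmp2 from 3.82 to -0.91, on the epithelial side. With clusters 8 and 12 both left out the count was 7, with Tgfbr1 and Fst added and Bmp2, at 0.82, no longer among them.

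**Figure D1:**
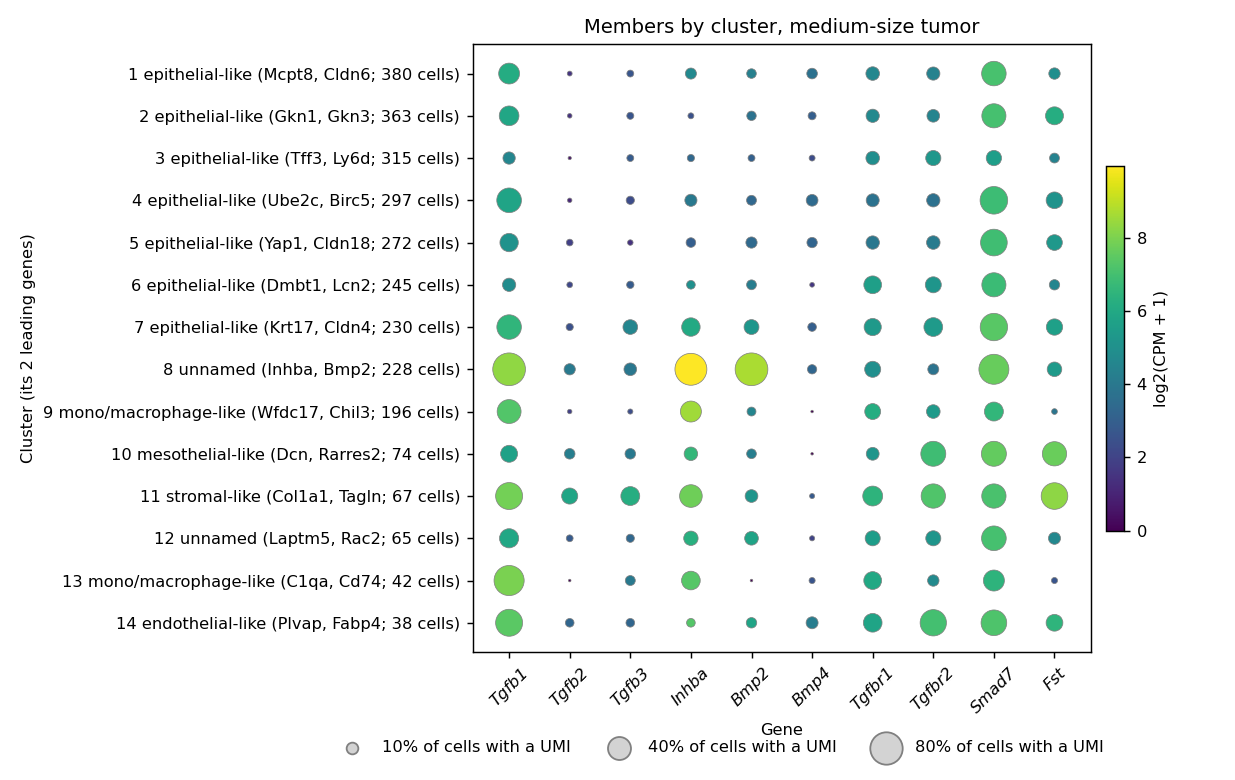
Level and share of cells for the 10 genes (columns) in the 14 clusters of the medium-size tumor (rows, named with class, 2 leading genes and number of cells). Dot color is log2(CPM + 1) over the cluster's cells and dot area grows with the percent of cells with at least 1 UMI. Inhba and Bmp2 are brightest in cluster 8, at 1003 and 418 CPM, while Tgfbr2 and Fst are brightest in the stromal-like cluster 11.

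Inhba, which encodes the subunit of activin A, had the widest range of the 10 genes. Cluster 8 held 1889 of its 2685 UMIs, 70.4% of them in 8.11% of the cells. Its level there was 1003 CPM (958 to 1049), and 177 of the 228 cells (77.6%) had at least 1 UMI. The cells of the cluster did not contribute evenly. The median cell had 4 Inhba UMIs and the highest 89, and the 23 highest cells held 44.6% of the cluster's Inhba UMIs. The monocyte/macrophage-like cells came next, at 326 CPM (290.0 to 365), then the stromal-like cells at 220 CPM (172 to 276), and these intervals were apart. The epithelial-like cells were lowest, at 19.9 CPM (17.8 to 22.2). The 157 CPM of the endothelial-like cells is no level of that class, since 36 of its 37 UMIs came from a single cell. The ratio of cluster 8 to the epithelial-like cells was 50.5 (44.8 to 57.0). Without cluster 8 the other cells were still 10.8-fold above the epithelial-like cells (9.35 to 12.5).

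The Inhba of the macrophages was set against other RNAs that could have reached them from elsewhere. In the monocyte/macrophage-like cells Inhba stood at 32.5% of its level in cluster 8. The other leading genes of cluster 8 stood far lower there. Bmp2 was at 4.15%, Mmp13 at 3.90%, Mmp10 at 1.33% and Piezo2 at 0.802% of their own level in cluster 8. Krt8, which macrophages should lack, was at 4.70% of its epithelial-like level and was seen in 34.0% of the macrophages, so shares of cells with a UMI are no proof of expression here and the levels are compared instead. Inhba had a UMI in 76 of the 238 macrophages (31.9%). The epithelial-like cells, which were deeper (a median of 5938 UMIs against 3516), had an Inhba UMI in 8.33% of cells. The 76 macrophages with Inhba had a Krt8 level of 157 CPM and the 162 without Inhba one of 155 CPM, while Krt18 was lower in those with Inhba, at 163 CPM (121 to 215) against 264 CPM (225 to 307). Of the genes that lead cluster 8, Mmp13 was at 35.9 CPM (17.9 to 64.3) in the macrophages with Inhba and at 14.6 CPM (6.70 to 27.8) in those without, and Bmp2 at 9.80 CPM (2.02 to 28.7) and 21.2 CPM (11.3 to 36.2), with overlapping intervals for both. Piezo2 had 0 and 4 UMIs. Their C1qa, a complement gene typical of tissue macrophages, was lower, at 1650.4 CPM against 3070 CPM, and so was Lyz2, a general macrophage marker, at 14723 CPM against 19891 CPM. By cluster, Inhba was at 371 CPM in macrophage cluster 9, led by Wfdc17 and Chil3, and at 159 CPM in cluster 13, led by C1qa and Cd74. In the stromal-like cells Inhba stood at 21.9% of its level in cluster 8, and Piezo2 stood higher, at 27.3%. Mmp10 was at 14.7%, Bmp2 at 8.64% and Mmp13 at 3.24% there. Inhba thus did not stand apart in the stromal-like cells as it did in the macrophages, and its source there was not tested.

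Bmp2 shared the peak of Inhba in cluster 8 but not its high level in the macrophages. Its level in cluster 8 was 418 CPM (390 to 449), with a UMI in 81.6% of the cells, and the cluster held 72.1% of its 1093 UMIs. No other class passed 55.3 CPM (29.4 to 94.5), the level of the endothelial-like cells, where 11 of 13 UMIs lay in 1 cell. The macrophages had 17.4 CPM (9.93 to 28.2) and the epithelial-like cells 14.7 CPM (12.9 to 16.7), with overlapping intervals. There were thus 2.40 Inhba UMIs per Bmp2 UMI in cluster 8 (2.20 to 2.61), 1.35 in the epithelial-like cells (1.14 to 1.60) and 18.8 in the macrophages (11.4 to 33.2). The high Inhba of the macrophages was thus met by a Bmp2 level like that of the epithelial-like cells, whereas cluster 8 was high in both. After every cell was thinned to 2500 UMIs, 78 of the 228 cells of cluster 8 (34.2%) had Inhba and Bmp2 together. Within the cluster Bmp2 was seen in 78 of 138 cells with Inhba (56.5%) and in 48 of 90 cells without it (53.3%), shares that overlap within counting error.

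**Figure D2:**
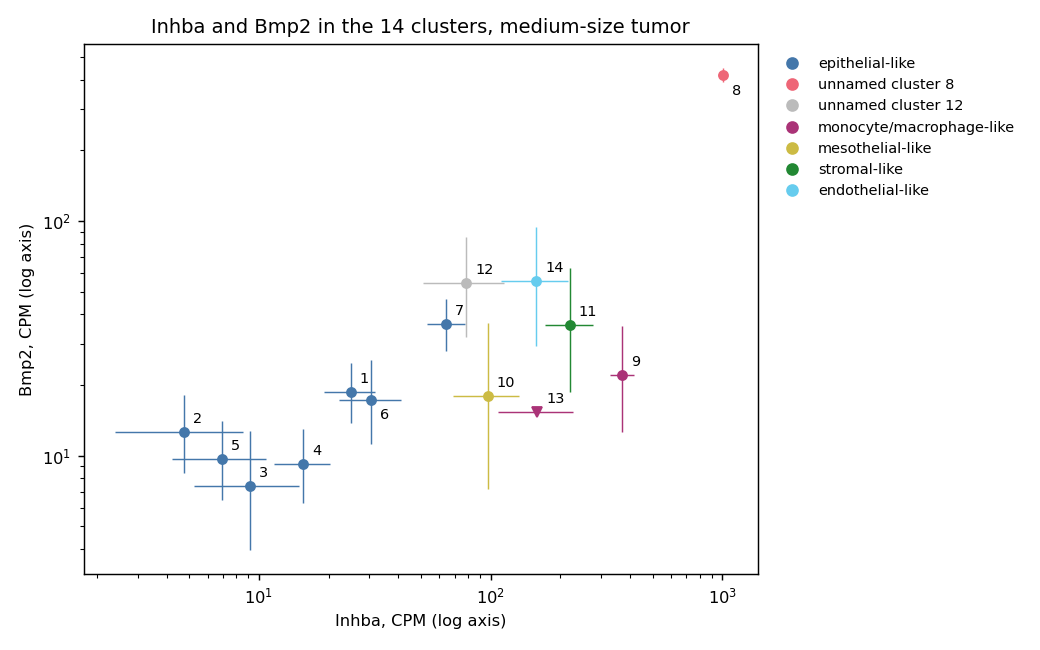
Inhba (x axis) against Bmp2 (y axis) in CPM on log axes, 1 point for each of the 14 clusters of the medium-size tumor, numbered and colored by class, with 95% Poisson intervals as bars. The triangle for cluster 13 is the limit that 3 counts allow, since it had 0 Bmp2 UMIs. Cluster 8 stands alone at 1003 CPM Inhba and 418 CPM Bmp2, while macrophage cluster 9 has 371 CPM Inhba with low Bmp2.

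Tgfb1, the most widely expressed TGF-beta ligand, was detected in every class and was also highest in cluster 8. Its level there was 318 CPM (293 to 344), with a UMI in 186 of 228 cells. The stromal-like cells had 232 CPM (183 to 290), the macrophages 175 CPM (149 to 204) and the endothelial-like cells 170 CPM (122 to 232), and neighbouring intervals among these 3 overlapped. The endothelial-like cells also had Krt8 at 30.9% and Krt19 at 35.7% of the epithelial-like level. How far RNA of other cells enters their values, here and below, was not tested. The epithelial-like cells, at 52.2 CPM (48.7 to 55.8), and the mesothelial-like cells, at 51.1 CPM (31.2 to 78.9), were lowest. Because of their number the epithelial-like cells still held 48.0% of the Tgfb1 UMIs, and cluster 8 held 33.9%. The spread over cells was narrower than for Inhba, with a median of 2 and a maximum of 10 UMIs per cell of cluster 8.

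Inhba and Tgfb1, both highest in cluster 8, differ in the sequence before their start. Their promoter windows, 250 bases before to 50 after the start in RefSeq on GRCm38.p6, are shown for that reason, in lower case with any TATA box (TATAAA) in capitals. The Inhba window lies on chromosome 13 (chr13:16011601-16011900, plus strand) and has 47.7% GC, and the Tgfb1 window on chromosome 7 (chr7:25686752-25687051, plus strand) has 77.0% GC.
Inhba: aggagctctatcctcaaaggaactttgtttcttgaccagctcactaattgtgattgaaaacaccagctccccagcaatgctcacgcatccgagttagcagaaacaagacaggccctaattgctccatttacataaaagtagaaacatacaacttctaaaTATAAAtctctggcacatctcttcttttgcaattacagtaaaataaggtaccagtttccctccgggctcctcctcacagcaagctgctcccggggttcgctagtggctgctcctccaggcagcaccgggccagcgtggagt
Tgfb1: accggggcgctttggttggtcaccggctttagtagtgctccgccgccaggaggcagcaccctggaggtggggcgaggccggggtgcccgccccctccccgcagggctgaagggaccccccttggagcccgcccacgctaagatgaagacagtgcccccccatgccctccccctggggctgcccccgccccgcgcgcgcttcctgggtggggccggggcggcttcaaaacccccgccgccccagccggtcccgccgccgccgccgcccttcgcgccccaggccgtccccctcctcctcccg
The Inhba window has 1 TATAAA and the Tgfb1 window none, and 13.6% of the 32851 promoter windows in the table have one on either strand. Neither window has the SMAD-binding element CAGAC (49.6% of windows), the AP-1 site TGANTCA (7.81%) or the GC-rich SMAD motif GGCGCC (11.9%), each searched on both strands. The Tgfb2 window holds 2 CAGAC and 1 TATAAA, the Tgfbr2 window 1 CAGAC, 1 of the 2 Tgfbr1 windows 1 GGCGCC and the other 1 CAGAC, and the Bmp4 window none of the 4 motifs. These are matches of letters in a short window and say nothing on whether a factor binds. Inhba itself spans positions 16011851 to 16031621 of chromosome 13, Tgfb1 25687002 to 25705077 of chromosome 7, and Bmp2 133552159 to 133562885 of chromosome 2, all on the plus strand of GRCm38.

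Tgfb2 and Tgfb3 were low in the tumor and highest in the stromal-like cells. Tgfb2 had 97 UMIs in all, and its stromal-like level was 57.2 CPM (34.5 to 89.4), against 15.9 CPM (10.7 to 22.7) in cluster 8 and 2.16 CPM (1.5 to 3.00) in the epithelial-like cells. Tgfb3 had 173 UMIs, with 72.3 CPM (46.3 to 108) in the stromal-like cells, 14.3 CPM (9.45 to 20.9) in cluster 8 and 6.48 CPM (5.30 to 7.84) in the epithelial-like cells. For Tgfb3 the stromal-like interval was apart from that of each other class, and for Tgfb2 it overlapped that of the mesothelial-like cells, at 17.9 CPM (7.19 to 36.8). Both genes were seen in a minority of the stromal-like cells, Tgfb2 in 13 and Tgfb3 in 18 of the 67. In the macrophages they were close to the epithelial-like level, at 2.17 CPM and 6.52 CPM.

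Bmp4 ran against the other ligands. It was the only one of the 6 ligands whose level was lower in the sum of the other cells, with a ratio of 0.742, an interval (0.459 to 1.15) that includes 1. Without cluster 8 the ratio was 0.458 (0.194 to 0.930). The epithelial-like cells had 7.90 CPM (6.59 to 9.39) and held 84.2% of its 152 UMIs. Cluster 8, so high in Bmp2, had 8.50 CPM (4.86 to 13.8) of Bmp4, which is 1.08 times the epithelial-like level (0.597 to 1.82). The macrophages had 1 UMI and the mesothelial-like cells 0, which allows 7.66 CPM. The 17 CPM of the endothelial-like cells rests on 4 UMIs.

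**Figure D3:**
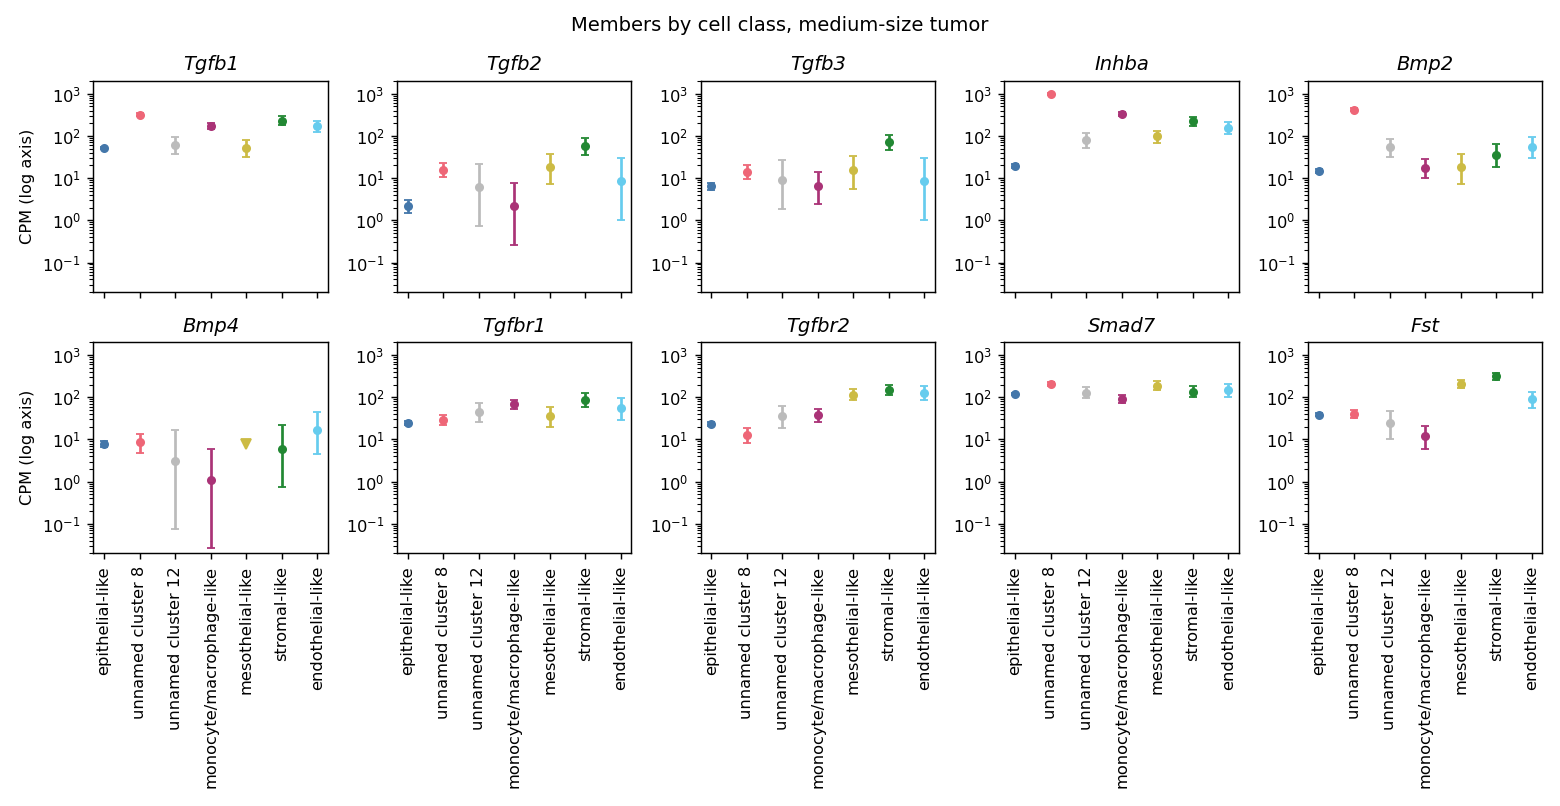
Level of each of the 10 genes (panels) in the 7 cell classes of the medium-size tumor, in CPM on a log axis, with exact 95% Poisson intervals. The triangle in the Bmp4 panel is the limit for the mesothelial-like cells, which had 0 UMIs. Inhba, Bmp2 and Tgfb1 peak in cluster 8, Tgfb2, Tgfb3, Tgfbr1, Tgfbr2 and Fst in the stromal-like cells, and Smad7 moves least across the classes.

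The receptor genes were spread otherwise than the ligands. Tgfbr2, which binds the ligand first, was at 151 CPM (112 to 199) in the stromal-like cells, 128 CPM (86.1 to 182) in the endothelial-like cells and 115 CPM (83.8 to 154) in the mesothelial-like cells, with overlapping intervals. The macrophages had 38.0 CPM (26.5 to 52.9) and the epithelial-like cells 23.5 CPM (21.2 to 26.0). The lowest level was in cluster 8, at 12.7 CPM (8.17 to 19.0), a ratio of 0.542 to the epithelial-like cells (0.343 to 0.819). The class with the highest Tgfb1 level thus had the lowest Tgfbr2 level, with an interval that overlapped only that of cluster 12, at 36.1 CPM (18.7 to 63.1). Tgfbr1, the signaling partner, varied less. It ranged from 24.2 CPM (21.9 to 26.7) in the epithelial-like cells and 29.2 CPM (22.0 to 38.0) in cluster 8 to 87.4 CPM (58.5 to 125) in the stromal-like cells. The macrophages had 68.4 CPM (52.6 to 87.6) of Tgfbr1, above their Tgfbr2. Both receptors together were seen, after thinning, in 7 of 67 stromal-like cells (10.4%), 15 of 2102 epithelial-like cells (0.714%) and 1 of 228 cells of cluster 8 (0.439%).

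Fst, whose product binds activin, did not peak where Inhba did. Its level was 310.3 CPM (253 to 376) in the stromal-like and 207 CPM (164 to 257) in the mesothelial-like cells. Cluster 8 had 40.9 CPM (32.3 to 51.1) and the epithelial-like cells 38.2 CPM (35.2 to 41.3), a ratio of 1.07 (0.834 to 1.36). The macrophages were lowest, at 11.9 CPM (5.96 to 21.4). Set against Inhba in the same cells, there were 0.0408 Fst UMIs per Inhba UMI in cluster 8 (0.0320 to 0.0512) and 0.0367 in the macrophages (0.0181 to 0.0666). In the epithelial-like cells there were 1.92 (1.68 to 2.21), in the stromal-like cells 1.41 (1.04 to 1.93) and in the mesothelial-like cells 2.13 (1.43 to 3.22). The 2 classes with the most Inhba therefore had the lowest ratio of antagonist to ligand RNA, and their intervals were apart from those of the other named classes. In the stromal-like cells, after thinning, Fst was seen in 14 of 22 cells with Inhba and in 13 of 45 cells without it.

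Smad7 was the most even of the 10 genes across classes. Its highest level was in cluster 8, at 203 CPM (183 to 224), and its lowest in the macrophages, at 92.3 CPM (73.7 to 114). The epithelial-like cells had 118 CPM (112 to 123) and the mesothelial-like cells 189 CPM (148 to 237). Cluster 8 was 1.72-fold above the epithelial-like cells (1.54 to 1.93). The epithelial-like cells held 74.2% of its 2570 UMIs (72.5 to 75.9), below their 79.8% of all UMIs.

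Where the RNA of a gene lay in the tumor depends on its level and on how many cells of each class were captured. Of the 10 genes, 6 had over 50% of their UMIs in the epithelial-like cells, which are Tgfb3, Bmp4, Tgfbr1, Tgfbr2, Smad7 and Fst. Those cells made 79.8% of all UMIs, so a gene spread like all UMIs would also pass 50%. The share of all genes that pass it was not counted. Inhba and Bmp2 had most of their UMIs in cluster 8, and Tgfb1 and Tgfb2 had no class over 50%. With cluster 8 counted as epithelial, all 10 had over 50% in the epithelial-like cells.

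**Figure D4:**
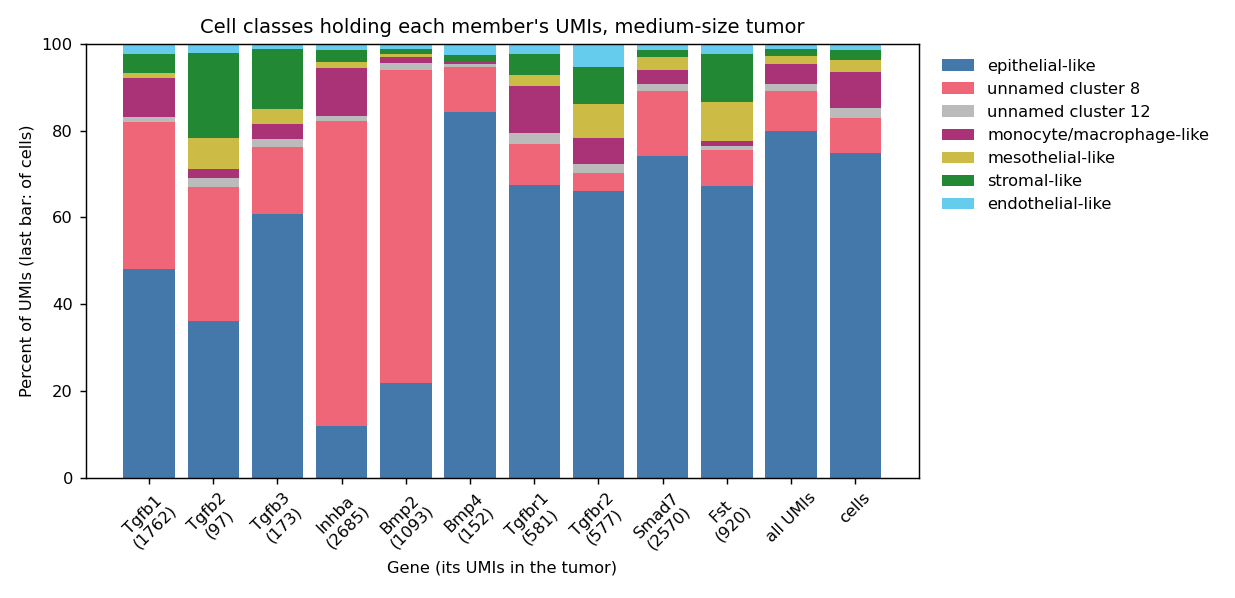
Percent of each gene's UMIs in the medium-size tumor that came from each cell class (stacked colors), with the gene's UMIs in parentheses. The bars at the right give the same for all UMIs and for cells. Cluster 8 has 9.28% of all UMIs but 70.4% of those of Inhba and 72.1% of those of Bmp2. Bmp4 has the largest epithelial-like share, at 84.2% (77.4 to 89.6), an interval that includes the 79.8% of all UMIs.

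Among the carcinoma states 5 of the 6 ligand genes were highest in the same epithelial-like cluster, the exception being Bmp4. Tgfbr2 and Smad7 were highest there too. How many of all genes are highest in that cluster was not counted, so no background stands beside the 5. Of the 10 genes, 4 had a cluster at least 2-fold above the pooled epithelial-like cells, as did 22.4% of the 11296 genes with at least 30 UMIs there. They were Tgfb2, Tgfb3, Inhba and Bmp2, and for all 4 the cluster was number 7, led by Krt17, Cldn4 and Slco2a1, with Tnc and Fn1 among its 10 leading genes. Inhba was at 64.2 CPM (52.9 to 77.2) in cluster 7 and at 4.77 CPM (2.38 to 8.53) in cluster 2, led by the stomach genes Gkn1 and Gkn3, a ratio of 13.5 (7.24 to 27.7). Bmp2 was at 36.4 CPM (28.0 to 46.4) in cluster 7 and at 7.43 CPM (3.96 to 12.7) in cluster 3, led by Tff3 and Ly6d. Tgfb3 was at 22.7 CPM (16.2 to 30.9) in cluster 7 and at 1.73 CPM (0.563 to 4.05) in cluster 5, led by Yap1 and Cldn18. Tgfb2 rests on 8 UMIs in cluster 7. These values of cluster 7 are well under those of cluster 8 for Inhba and Bmp2, whereas for Tgfb3 cluster 8, at 14.3 CPM (9.45 to 20.9), overlapped cluster 7.

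The remaining genes stayed under 2-fold above the pooled epithelial-like level in each of these 7 clusters. At resolution 1.2, with 11 epithelial-like clusters, 8 of the 10 genes passed 2-fold, as did 35.5% of the 11301 genes tested. Tgfb1 ranged from 90.3 CPM (76.8 to 106) in cluster 7 to 22.9 CPM (16.3 to 31.1) in cluster 3, and Smad7 from 165 CPM (146 to 185) to 46.3 CPM (36.8 to 57.5) in the same clusters. Tgfbr2 was highest in cluster 7, at 41.5 CPM (32.5 to 52.2), and lowest in cluster 4, led by the mitosis genes Ube2c and Birc5, at 11.8 CPM (8.43 to 15.9). Tgfbr1 was highest in cluster 6, led by Dmbt1 and Lcn2, at 47.1 CPM (36.6 to 59.7), and also lowest in cluster 4, at 12.6 CPM (9.16 to 16.9). Both receptors were thus lowest in the cycling cells, which were also the deepest, at 9728 UMIs in the median cell, and the part of depth in this was not tested. Fst was highest in cluster 2, at 70.7 CPM (60.2 to 82.4), the cluster with the least Inhba. Bmp4 was highest in cluster 1, led by Mcpt8 and Cldn6, at 12 CPM (8.18 to 17.1), and lowest in cluster 6, with 3 UMIs.

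The rest of the pathway was read from the same list of 75 genes. Of these, 59 had at least 50 UMIs, of which 26 were at least 2-fold higher in the other cells, 1 in the epithelial-like cells and 32 within 2-fold. Without the 10 genes described above the counts were 20, 1 and 28 of 49, against 11.5% and 8.24% of all genes in the 2 directions. The median log2 ratio over those 49 was 0.89. The 26 became 21 when cluster 8 was counted as epithelial and 23 when both unnamed clusters were left out. The 1 gene higher in the epithelial-like cells became more in both cases, as given in the closing section. The counts by role below keep cluster 8 among the other cells. The 5 listed genes with 0 UMIs in the medium-size tumor were Bmp5, Bmp6, Mstn, Nodal and Bmpr1b.

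By role, the other ligands tested were all on the side of the other cells. Bmp7 had a ratio of 14.3 (7.93 to 27.2) and was highest in cluster 8, at 23.4 CPM. Inhbb had 3.70 (2.38 to 5.73), highest in the endothelial-like cells, and Gdf15 had 2.00 (1.38 to 2.87), highest in the macrophages. Among the receptors 3 of 9 were higher in the other cells. These were Tgfbr3 (betaglycan), with a ratio of 11.9 and its peak in the mesothelial-like cells, Eng (endoglin), with 7.32, and Acvrl1, with 3.96, the last 2 with their peak in the endothelial-like cells, where both are known to act. The lowest ratios were those of the activin receptors Acvr2b, at 0.475 from 6 UMIs in the other cells (0.166 to 1.11), Acvr2a, at 0.960, and Acvr1b, at 0.983.

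Of the secreted antagonists 4 of 7 were higher in the other cells. Bmper, with a ratio of 15.1, and Grem1, with 10.0, both BMP antagonists, had their peak in the stromal-like cells, the class where Fst was highest too. The lowest ratios were those of Nbl1 (0.951), Twsg1 (1.54) and Fstl3 (1.98). The SMADs and inhibitors were nearly flat, with 10 of 11 within 2-fold. Bambi, a decoy receptor, was the exception, with a ratio of 7.97 (6.07 to 10.5) and 60.01 CPM in cluster 8. Next came Ski (1.65) and Smad6 (1.62), and the lowest were Smad2 (0.909), Smurf1 (0.940) and Smad4 (0.955).

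Among the genes of latency and activation, Thbs1 (thrombospondin 1), with a ratio of 9.01, Ltbp2, with 7.83, and the protease gene Bmp1, with 2.80, were higher in the other cells and had their peak in the stromal-like cells. Itgb6, which encodes the epithelial integrin subunit that activates latent TGF-beta, was the listed gene called at least 2-fold higher in the epithelial-like cells, with a ratio of 0.292 (0.164 to 0.485). Acvr2b was not called because 1 UMI is added to each sum before the ratio, and genes under 50 UMIs were not tested. The lowest ratios after it were those of Furin (1.07) and Itgav (1.19).

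Of the 10 listed target genes 6 were higher in the other cells, but not in the same classes. Tgfbi had a ratio of 25 and was at 344 CPM (307 to 384) in the macrophages but at 4.78 CPM (2.19 to 9.07) in cluster 8, the same as the 4.38 CPM (3.42 to 5.53) of the epithelial-like cells within counting error. Snai1, with a ratio of 10.1, was at 59.5 CPM in the endothelial-like and 54.2 CPM in the stromal-like cells, and at 4.25 CPM (1.83 to 8.37) in cluster 8. Id3, with 6.69, was at 495 CPM (464 to 528) in cluster 8 and at 60.7 CPM (56.9 to 64.6) in the epithelial-like cells. Id2, named after its value was seen, was at 841 CPM (800.2 to 884) in cluster 8 and at 181 CPM (175 to 188) in the epithelial-like cells. In cluster 8 the BMP targets Id1, Id2 and Id3 were thus all above the epithelial-like cells, Id1 at 465 CPM (434 to 496) against 235 CPM (227 to 242). The lowest ratios of other to epithelial-like cells were those of Cdkn2b (1.06), Pmepa1 (1.09) and Id1 (1.27).

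The genes whose levels ran most like each of the 10 over the 14 clusters were taken among 4800 genes with at least 500 UMIs, by Pearson's r of log2(CPM + 10). The points are clusters of 1 tumor that share a library, so r is a description. Inhba ran most like Ptgs2 (0.90), Cmtm3 (0.87) and Tgfb1 (0.85). Tgfb1 ran like Bnip2 (0.91), Fxyd5 (0.88) and Lims1 (0.86), and Bmp2 like Ddit3 (0.89), Tmem55b (0.88) and Piezo2 (0.87). Ptgs2 and Piezo2 are among the leading genes of cluster 8, as are Inhba and Bmp2. Tgfbr2 ran like Sparc (0.93), Prss23 (0.92) and Mcfd2 (0.91), and Fst like the collagen gene Col6a1 (0.92), Lhfp (0.90) and Mgp (0.90). Tgfbr1 ran like Peli1 (0.93), Cltc (0.90) and Adprh (0.88), and Smad7 like Zfp36l1 (0.82), Csnk1d (0.81) and Ubap2l (0.81). For the 3 low genes r rests on few UMIs, and they ran like Timp1 (0.93), Pofut2 (0.93) and Timp3 (0.91) for Tgfb2, Wls (0.89), Zfp560 (0.88) and Serf1 (0.87) for Tgfb3, and Pcbp1 (0.94), Timm22 (0.91) and Abhd17a (0.90) for Bmp4.

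The large-size tumor is set beside the medium-size one as a description, since size, animal, day, depth and the mix of cells cannot be told apart with 1 tumor each. It had 11 clusters, with 945 epithelial-like, 253 monocyte/macrophage-like, 50 stromal-like and 11 endothelial-like cells, and no mesothelial-like cluster. The monocyte/macrophage-like classes of the tumors were not alike. Granulocyte markers summed to 8288 CPM in that of the large-size tumor and to 235 CPM in that of the medium-size one. Red blood genes summed to 1993 CPM and 35.8 CPM. Cluster 1 of the large-size tumor, of 274 cells, stayed unnamed like cluster 8 of the medium-size tumor. Of their 50 leading genes the 2 clusters shared 6, which is 12% of each (Ggct, Hmga2, Prrx2, Mmd, Ramp1 and Spp1). Cell by cell, 67.9% of the cells of cluster 1 (62.0 to 73.4) came out as epithelial by their own markers.

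The order of Inhba and Bmp2 over the classes was similar in outline in the large-size tumor. Inhba was at 158 CPM (107 to 224) in its macrophages, at 132 CPM in its stromal-like cells (60.4 to 251), at 132 CPM in cluster 1 (101 to 171) and at 12.6 CPM (7.56 to 19.6) in its epithelial-like cells. The 3 high classes overlapped, so that cluster 1 did not stand above the macrophages as cluster 8 did. Bmp2 was at 108 CPM (79.4 to 143) in cluster 1, at 17.2 CPM (11.2 to 25.2) in the epithelial-like cells, and had 2 UMIs in the macrophages and 0 in the stromal-like cells, which allows 44.0 CPM. Among its epithelial-like clusters, cluster 8 of this tumor, led by the goblet cell gene Zg16, had 106 CPM of Bmp2 (39.1 to 232) from 6 UMIs. Per Bmp2 UMI there were 1.23 Inhba UMIs in cluster 1 (0.826 to 1.84) and 15.5 in the macrophages (3.94 to 134).

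The epithelial-like cells of the tumors were not the same mix. Enterocyte and goblet genes, a list of 8, summed to 4768 CPM (4658 to 4879) in those of the large-size tumor. In the medium-size tumor the sum was 908 CPM (893 to 923). Of the large-size epithelial-like cells, 206 were in cluster 4, led by Fabp1, and 60 in cluster 8, led by Zg16. The ratios below thus compare unlike mixes of cells. Between the epithelial-like cells of the tumors, 1 of the 10 genes was at least 2-fold higher in the large-size tumor with intervals apart, and 3 were at least 2-fold lower. After thinning all cells to 500 UMIs, 2 of these 4 calls held, those of Fst and Tgfb1. Of the 11486 genes with at least 30 UMIs, 6.66% were higher and 14.7% lower by this rule, and the median log2 ratio of all genes was -0.13. Fst was the higher one, at 81.3 CPM (67.6 to 97.0) against 38.2 CPM (35.2 to 41.3), a ratio of 2.13. Tgfbr2, at 46.3 CPM (36.1 to 58.5) against 23.5 CPM (21.2 to 26.0), fell just short of 2-fold. The lower genes were Tgfb1, Tgfb3 and Bmp4, with 3, 2 and 1 UMIs left in the 945 cells. Bmp2, Tgfbr1, Inhba and Smad7 had ratios of 1.17 (0.746 to 1.75), 1.12 (0.791 to 1.55), 0.632 (0.376 to 1.00) and 0.77 (0.642 to 0.916). Over all cells, 0 of the 10 genes were higher and 4 lower, namely Tgfb1, Tgfb2, Inhba and Bmp4, against 6.58% and 15.4% of the 12260 genes tested.

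Tgfb1 was the gene that differed most between the tumors. It had 1762 UMIs, or 86.8 CPM (82.8 to 90.9), in the medium-size tumor as a whole and 11 UMIs, or 4.91 CPM (2.45 to 8.79), in the large-size tumor. The ratio of medium to large was 17.7 (9.85 to 35.5) over all cells and 26.3 (8.98 to 128) in the epithelial-like cells. It was low in each class of at least 50 cells in the large-size tumor, with 3 UMIs in the macrophages (15.3 CPM, 3.15 to 44.7, against 175 CPM), 1 in the stromal-like cells and 3 in cluster 1 (6.73 CPM, against 318 CPM in cluster 8). A feature of the library moved with this. In the epithelial-like cells, genes whose last 500 transcript bases had under 35% GC had a median log2 ratio of large to medium of 0.31, and the 137 genes with at least 60% GC one of -1.02. The last 500 bases of Tgfb1 have 62.8% GC, the highest of the 10 genes, those of Inhba 29%, those of Fst 35.6% and those of Bmp4 37%. The log2 ratio of Tgfb1, -4.31, lay beyond the median of that bin, and the part of GC content in it was not tested.

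**Figure D5:**
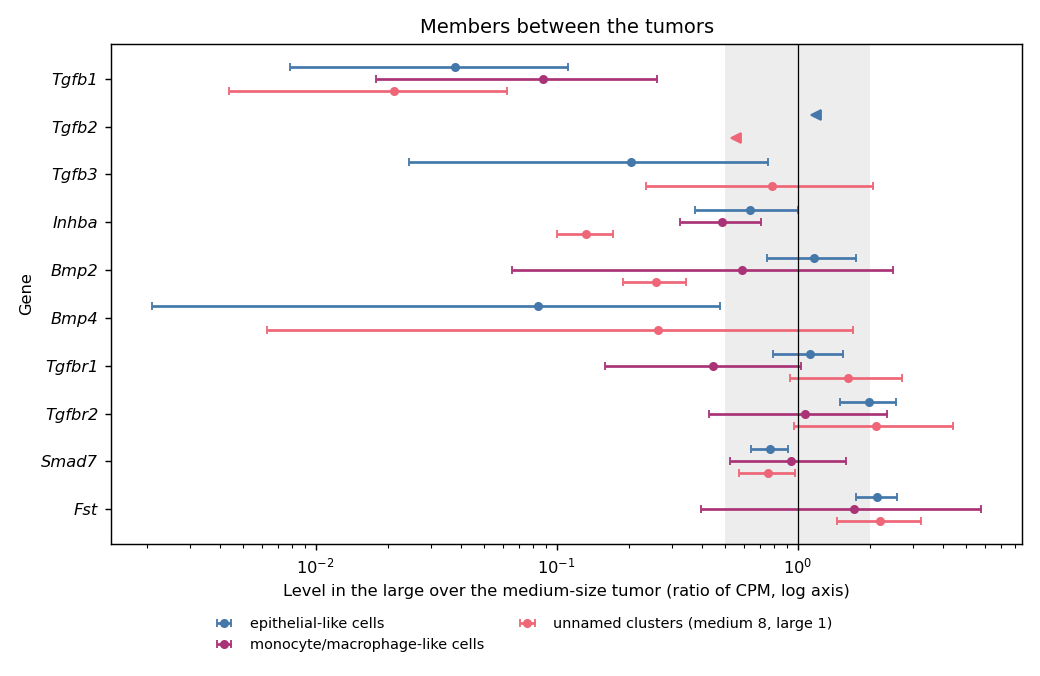
Ratio of the CPM in the large-size tumor to that in the medium-size tumor for the 10 genes (rows), on a log axis, in the epithelial-like cells, the monocyte/macrophage-like cells and the unnamed clusters (medium 8 and large 1), with exact 95% intervals for counting error. The grey band is the range within 2-fold, triangles are upper limits for sums of 0, and pairs with under 10 UMIs in the medium-size tumor are not drawn. Tgfb1 lies far to the left in all 3, and Fst and Tgfbr2 lie right of 1.

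The unnamed clusters of the tumors differed in Inhba and Bmp2, which lead cluster 8 of the medium-size tumor but are not among the 10 leading genes of cluster 1 of the large-size one. From cluster 8 of the medium-size tumor to cluster 1 of the large-size one, Inhba went from 1003 to 132 CPM, a ratio of 0.132 (0.100 to 0.171), and Bmp2 from 418 to 108 CPM, a ratio of 0.257 (0.188 to 0.345). Fst was higher in cluster 1, at 89.8 CPM (64.1 to 122) against 40.9 CPM (32.3 to 51.1), so that 0.678 Fst UMIs stood against each Inhba UMI there (0.442 to 1.03). Smad7 was at 153 CPM (118 to 193) against 203 CPM (183 to 224). In the stromal-like cells Tgfbr2 was at 323 CPM (202 to 489) in the large-size tumor and Fst at 382 CPM (249 to 559), so both were the highest levels of their gene in that tumor as well, where the 11 endothelial-like cells had 2 and 0 UMIs.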

How the data were processed

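Single-cell RNA of 1 medium-size and 1 large-size tumor was counted by the authors with Cell Ranger on mm10, per the study's methods and the submitters' processing notes. The deposited values are raw UMI counts per gene and cell, as whole numbers, in 1 table for each tumor that pools 4 technical replicates. All cells of both tables were used. The sources used here do not state whether counting used the strand, so reads of Tgfb2, Tgfb3, Inhba, Bmp4 and Fst cannot be told apart from those of genes on the opposite strand that overlap them.

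Each tumor was clustered with Seurat 5.3.0 in R 4.3.3 (log normalization to 10000, 2000 variable genes, 10 principal components, resolution 0.8), with the 10 genes and the pathway list left out of the variable genes. A cluster was named from at least 3 markers of a class, each in at least 10% of its cells and at 25% or more of the highest cluster's CPM, and was left unnamed where it also held 60% or more of the markers of another class. These limits were taken from an earlier analysis of the same data. Genes, lists and comparisons were chosen with earlier results of these data known.

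UMI sums per class were compared as ratios with exact conditional binomial intervals (scipy 1.17.1, Python 3.11.15). A gene was called at a log2 ratio of 1 or more in either direction, with 1 UMI added to each sum, at a minimum of 50 UMIs between cell classes and 30 among epithelial-like clusters and between tumors, where the intervals also had to be apart. Cells were thinned to 2500 UMIs (medium-size tumor) or 500 (both) where shares were compared. There are no replicate tables, so no test was run. The steps were checked on simulated counts with known ratios. Doublets were scored with Scrublet (scanpy 1.11.5). TMM factors came from edgeR 4.0.16, used for scaling only.

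The 10 genes are all named. Of the pathway list, the 3 genes with the highest and the 3 with the lowest ratio in each role are named, and others are said to be named after their values were seen. Some items are not reported here. Alternatives were other cluster settings, classing of single cells, thinning, leaving out high doublet scores, other scaling, and the place of the unnamed clusters. Promoter sequences are RefSeq windows on GRCm38.p6 and matched 6 of the 10 genes, leaving Bmp2, Tgfb3, Smad7 and Fst. Gene positions are from GENCODE on GRCm38, the same build.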

Additional observations from a re-analysis of the deposited data

How the results depend on the processing

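The number of the 10 genes at least 2-fold higher in the other cells stayed between 5 and 7 under every alternative run, but as given above the genes behind it changed with the place of cluster 8. When the 10 genes were used for clustering, at resolution 0.4 and with 20 principal components, all or nearly all cells of cluster 8 took an epithelial name, as most did when cells were classed one by one. Bmp2 then went from a log2 ratio of 3.82 to -1.18, -0.91, -1.12 and -0.20 in these 4 settings, and Smad7 from 0.46 to -0.0041 (own genes used), -0.0087 (20 components) and -0.047 (one by one). With cluster 8 counted as epithelial, an alternative chosen after seeing the data, Bmp2 was at -0.91. In all 5 settings 10 in place of 6 genes had over 50% of their UMIs in the epithelial-like cells. Pathway genes higher in the epithelial-like cells went from 1 to 5, 4, 5 and 2 in the 4 settings, to 4 with cluster 8 counted as epithelial and to 2 with both unnamed clusters left out, the last also chosen after seeing the data. Thinning to 2500 UMIs took the pathway genes higher in the other cells from 26 to 17, as fewer genes reached the minimum. At resolution 1.2 the genes with an epithelial-like cluster at least 2-fold above the pooled level went from 4 to 8, and thinning to 500 UMIs took the genes that differ between the tumors from 4 to 2, where the cause was not tested. Of 90 ratios between classes 40 moved by less than their interval, 42 moved further and 8 reversed, and of 119 ratios between tumors 106 moved by less, 13 moved further and 0 reversed.

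No paired analysis was possible because the replicate numbers in the labels mark technical replicates of 1 tumor that are pooled in 1 table. For the same reason leaving out a replicate was not possible. With 1 mouse for each tumor size, the intervals show counting error only. In the large-size tumor a sum of 0 over all cells still allows a level of 1.34 CPM.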
